A study of Mus musculus with 18 samples.

Results

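HM cells were compared with HetKO cells, the line they were made from, across every gene whose TPM averaged 1 or more in the 12 samples of the pair. This filter kept 13762 of the 55450 genes in the table, and the 12 samples are part of 18 in the series, with 6 WT samples used here for reference only. All are P19 cells, an established mouse embryonic carcinoma line that grows as undifferentiated, pluripotent-like cells. HetKO carries 1 full-length Dicer1 allele and 1 allele cut short by a frameshift (Dicer +/-), and HM carries the same truncated allele with the RNase IIIb missense change E1797G on the other (Dicer HM/-). WT has both alleles intact (Dicer +/+). HetKO was established as a clonal line and HM was derived from it by a second round of editing, so both lines share the truncated allele and differ by the hotspot mutation. They also differ by whatever else separates 2 cultures grown apart, and an effect of the mutation cannot be told apart here from a difference between clones. HetKO samples are numbered apart from the HM and WT samples in the series and have titles of another form. Whether the lines were prepared or sequenced together is not stated, and a difference of this kind cannot be told apart from one between lines.

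Dicer cuts the 2 strands of a microRNA (miRNA) precursor with a separate RNase III domain each. The RNase IIIa domain frees the 3p strand and the RNase IIIb domain frees the 5p strand. Hotspot mutations of the IIIb domain, known from tumours of DICER1 syndrome, spare the first cut and block the other. A miRNA guides Argonaute proteins to mRNAs that match its seed, bases 2 to 8 from the 5′ end, and lowers their translation and stability. A comparison of HM with HetKO holds the number of full-length alleles at 1 and asks how mRNA levels differ with the mutation.

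The miRNAs used below to group mRNAs are shown with the seed in capitals, first the 5p strands that normally guide silencing and then the 3p strands that are normally passengers. Mature sequences are from RefSeq (GRCm38.p6), where all 10 names were found, and miR-7a-5p, miR-16-5p and miR-26a-5p, which have 2 loci each, are shown at 1 of them. miR-15b-5p and miR-16-5p share a seed, as do miR-17-5p and miR-20b-5p, and miR-17-3p and miR-20b-3p.
miR-7a-5p, chr7:78888295-78888317, plus strand: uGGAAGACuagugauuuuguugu
miR-15b-5p, chr3:69009775-69009796, plus strand: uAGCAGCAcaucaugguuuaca
miR-16-5p, chr3:69009918-69009939, plus strand: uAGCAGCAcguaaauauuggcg
miR-17-5p, chr14:115043684-115043706, plus strand: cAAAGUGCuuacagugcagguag
miR-20b-5p, chrX:52742159-52742181, minus strand: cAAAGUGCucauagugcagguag
miR-26a-5p, chr9:119031811-119031832, plus strand: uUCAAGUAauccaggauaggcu
miR-7a-1-3p, chr13:58392800-58392821, minus strand: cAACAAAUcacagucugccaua
miR-15b-3p, chr3:69009813-69009834, plus strand: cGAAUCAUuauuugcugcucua
miR-17-3p, chr14:115043721-115043742, plus strand: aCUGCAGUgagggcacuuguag
miR-20b-3p, chrX:52742122-52742143, minus strand: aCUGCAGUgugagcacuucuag

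Each sample summed to about 1000000 TPM, a measure scaled to transcript length and to a fixed total, so the read depth behind a value is unknown. Marker genes of embryonal carcinoma cells summed to 3688 to 4246 TPM in HM and 3198 to 4006 TPM in HetKO, with all 9 listed markers at a mean of 1 TPM or more. Markers of fibroblasts (10.6 to 41.1 TPM summed over 8 genes), visceral endoderm (0.66 to 2.26 TPM over 5) and blood (1.03 to 2.38 TPM over 3) were low in both lines. The 4 neuronal markers summed to 34.1 to 62.7 TPM in HM and 30.1 to 61.2 TPM in HetKO, each at a mean of 1 TPM or more. Ttr, Hbb-bs and Myog were listed at 0 in all 12 samples. The muscle list was higher in HM (62.5 to 88.7 TPM) than in HetKO (28.0 to 49.4 TPM), almost all of it from Tnnt1, and its part in the results below was not tested. In bulk samples, fewer cells of a type and less RNA per cell cannot be told apart.

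Samples within each line came in alike pairs. The spread of log2 values between 2 samples was taken as a robust SD over highly expressed genes, those averaging 200 TPM or more. In HetKO this spread was 0.051 to 0.07 within the pairs of replicates 1 and 4, 2 and 5, and 3 and 6. In HM it was 0.06 to 0.108 within the pairs 1 and 4, 2 and 3, and 5 and 6. For the 12 other sample combinations it reached 0.164 to 0.354 in HetKO and 0.166 to 0.277 in HM. HetKO replicates 2 and 5 stood apart most, with 843 genes at least 2-fold away from the other 4 HetKO samples without overlap. HM replicates 2 and 3 stood apart from the other 4 HM samples at 433 genes by the same measure, and between the 2 lines the number was 493. Neither the labels nor the methods say whether pairs share a culture or library, so p-values over 6 samples may measure technical spread in part, and results are also given with the mean of each pair as 1 of 3 replicates.

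Of 13762 genes, 4765 (34.6%) differed between HM and HetKO (limma on log2(TPM + 1), Benjamini-Hochberg adjusted p under 0.05). There were 1926 higher in HM (14.0%) and 2839 lower (20.6%), and the values of the 6 HM and 6 HetKO samples did not overlap at 2116 of the genes that passed (15.4%). The median size of the difference among genes that passed was 0.54 on the log2 scale. At least 2-fold differences were fewer, with 302 genes higher and 401 lower in HM. With pair means as replicates, 454 genes passed (3.30%), 197 higher and 257 lower, and 451 of them had also passed with 6 samples in the same direction. The median difference over all genes was -0.05. Centring each sample on its median moved it to 0.07 and the split to 2961 higher and 1900 lower, and quantile normalization gave 2357 higher and 2424 lower. Small differences near 0 therefore change direction with the scaling, and those named below are larger unless stated.

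**Figure D1:**
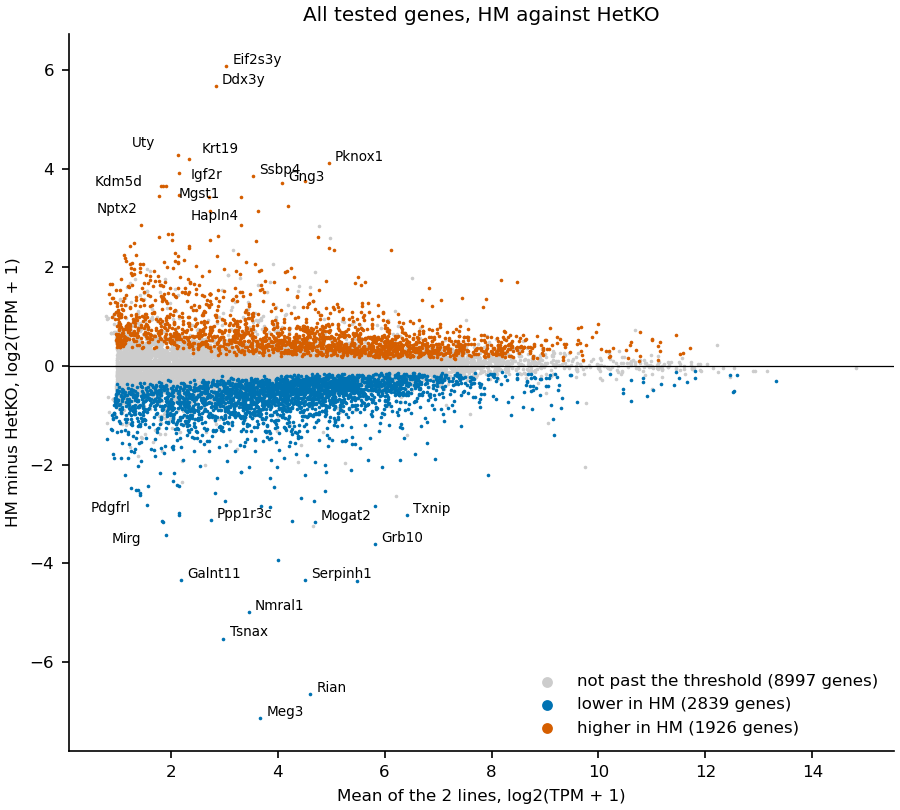
Difference between HM and HetKO against expression for all 13762 tested genes. Each point is a gene, the x axis is the mean log2(TPM + 1) of the 2 lines, the y axis is the log2(TPM + 1) difference (HM minus HetKO), colours mark the 1926 genes higher and 2839 genes lower in HM at a limma adjusted p under 0.05, and labels name the 12 largest increases and decreases selected for the text.

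Because the filter uses the mean of both lines, a gene near 0 in 1 line could pass through the other, which fixed the direction of its difference. This holds for each gene named below with a mean under 1 TPM in 1 line, whether or not it is repeated there. A mean under 1 TPM was found for 386 tested genes in HM, 164 of which passed as lower, and for 370 in HetKO, 191 of which passed as higher. The gene just inside the filter was Ap3m2, with means of 1.095 TPM in HM and 0.905 TPM in HetKO. Just outside was Fam222a, at 1.123 TPM and 0.875 TPM.

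Dicer1 (ENSMUSG00000041415.10, minus strand, chr12:104687742-104751952 in GRCm38), the edited gene, was slightly lower in HM. HM replicates 1 to 6 had 43.0, 39.5, 38.5, 35.4, 40.9 and 44.2 TPM, a mean of 40.3 ± 3.18 (SD, n = 6). HetKO had 53.8, 42.9, 44.9, 51.6, 46.7 and 48.2 TPM, a mean of 48.0 ± 4.10 (SD, n = 6). The lines overlapped, since HM replicates 1 and 6 reached the lowest HetKO value. The log2 difference was -0.25 (SE 0.07, limma adjusted p = 0.0216), which did not pass with pair means (adjusted p = 0.232) or after centring (-0.13, adjusted p = 0.186). A missense change need not alter the amount of transcript, so this level does not check the genotype labels.

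Other genes of the miRNA pathway, from Drosha and Dgcr8, which cut the primary transcript, to the Argonautes and the Tnrc6 proteins that carry out silencing, differed in both directions. Of 25 listed, 24 were tested, 6 were higher, 4 lower and 14 did not pass, and the median log2 difference was 0.16. The share that passed was 41.7%, against 34.6% of all tested genes. After centring 11 were higher and 2 lower, with a median of 0.28. Centring moved all genes as well, with 2961 of the 13762 higher, 1900 lower and a median of 0.07. Prkra, which encodes PACT, a partner of Dicer that binds double-stranded RNA, fell from 39.3 ± 6.06 TPM in HetKO to 20.6 ± 3.48 TPM in HM (SD, n = 6 each). Its log2 difference of -0.90 (SE 0.12, limma adjusted p = 0.000192) also passed with pair means (adjusted p = 0.0244), and it lies in the lowered stretch of chromosome 2 described below. Adar, an adenosine deaminase of double-stranded RNA, rose by 0.61 (SE 0.12, limma adjusted p = 0.00249), and Tnrc6a rose by 0.50 (SE 0.13, limma adjusted p = 0.0123). Neither passed with pair means (adjusted p = 0.11 and 0.166). Adar lies from 80 to 90 Mb of chromosome 3, where HM replicates 2 and 3 were raised, as described below. It was at 41.0 and 42.9 TPM in these replicates, 26.85 to 31.6 TPM in the other HM samples and 18.6 to 24.4 TPM in HetKO. Ago2, the Argonaute that can slice targets, was at 52.7 TPM in HM and 47.9 TPM in HetKO and did not pass.

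Genes were then grouped by the seed matches in their 3′ UTR. Among tested genes, 11908 had an annotated 3′ UTR (longest per gene, GENCODE M21), of which 14.8% were higher and 22.2% lower in HM. The 2768 genes with a match to a 5p seed and none to a 3p passenger seed were higher in 14.4% and lower in 21.4%, with a median log2 difference of -0.057. The 1618 genes with a match to a 3p passenger seed and none to a 5p seed were higher in 17.0% and lower in 21.8%, with a median of -0.037. The 4890 genes with no match were higher in 13.9% and lower in 23.9%, with a median of -0.065. Genes with no match had a median 3′ UTR of 532 bases against 1494 and 1393 bases in the other groups. When 3′ UTRs were divided by length into 3 equal classes, the longest class held 381 genes with no match, of which 44 were higher and 90 lower. In the same class 14.7% of genes with 5p matches and 18.5% with passenger matches were higher, and 19.7% and 21.2% were lower. These are counts of predicted matches, given without a test, and every group median lay within 0.1 of 0.

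Of 36 described targets of the 5p guide miRNAs, all were tested, with 7 higher, 6 lower and 23 not passing and a median of 0.02. The share that passed, 36.1%, was near the 34.6% of all tested genes. This list was put together from knowledge of the field with earlier results of these data in view. The largest rise was Ccnd1, cyclin D1, which drives entry into S phase. It stood at 166, 99.1, 103, 108, 215 and 228 TPM in HM replicates 1 to 6 and at 21.3, 52.7, 19.8, 21.4, 52.0 and 17.5 TPM in HetKO. HM was higher in all samples by 2.35 (SE 0.32, limma adjusted p = 0.000228, 0.0344 with pair means), and WT was lower still, at 9.65 to 12.4 TPM. Irs2, an adaptor of the insulin receptor, rose by 1.33 (SE 0.15, limma adjusted p = 4.11e-05). The largest fall was that of Ccnd2, cyclin D2, at 3.62 to 7.98 TPM in HM and 11.96 to 69.3 TPM in HetKO (log2 difference -2.45, SE 0.40, limma adjusted p = 0.000812, 0.0606 with pair means). The 2 cyclins moved in opposite directions in the same cells.

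The largest changes of all included an imprinted locus. Meg3, Rian and Mirg are maternally expressed non-coding RNAs of the Dlk1-Dio3 region, whose transcripts hold many miRNAs and small nucleolar RNAs. Meg3 (chr12:109541001-109571726) was listed at 0 in 5 HM samples and at 0.01 TPM in replicate 3. In HetKO it was at 206, 79.1, 217, 213, 52.7 and 196 TPM, and in WT at 252 to 297 TPM. Rian had 0.44 to 2.82 TPM in HM, 110 to 362 TPM in HetKO and 371 to 431 TPM in WT, and Mirg had 0 to 0.34, 6.60 to 15.6 and 11.1 to 19.97 TPM. The log2 differences were -7.15, -6.66 and -3.42 (SE 0.32, 0.34 and 0.20, limma adjusted p = 8.03e-09, 2.59e-08 and 9.71e-08). Genes among the 12 largest changes in each direction were chosen for passing with pair means without overlap, so neither is added support here. HetKO replicates 2 and 5 were the lowest HetKO samples for all 3. The paternally expressed Dlk1 and Rtl1 of the same region did not reach the filter, with means of 0.13 and 0.288 TPM in HM and 0.113 and 0.04 TPM in HetKO. Of the 10 listed genes 6 were tested and the other 3 tested ones, Begain, Wdr25 and Wars, did not pass.

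Imprinted genes elsewhere moved both ways. Of 38 listed, 32 were tested, 8 were higher, 9 lower and 15 did not pass, with a median of -0.09 that turned to 0.03 after centring. The median over all tested genes moved from -0.05 to 0.07 in the same way. The share that passed was 53.1%, against 34.6% of all tested genes. Grb10, an adaptor that restrains growth factor signalling, was at 5.08, 27.7, 27.4, 4.72, 16.5 and 17.96 TPM in HM and 172, 206, 154, 176, 205 and 161 TPM in HetKO. WT had 7.13 to 25.0 TPM, so HetKO was the high line. Igf2r, the receptor that clears IGF2, was at 14.3 to 17.3 TPM in HM and 0 to 0.23 TPM in HetKO, with WT between at 1.71 to 10.8 TPM. The log2 difference was -3.62 for Grb10 (SE 0.38, limma adjusted p = 2.93e-05) and 3.91 for Igf2r (SE 0.10, limma adjusted p = 2.02e-11). Both are among the largest changes, which were chosen for passing with pair means. H19 was lower by 1.86 in HM on overlapping values, at 2.37 to 18.3 against 16.4 to 41.6 TPM (SE 0.42, limma adjusted p = 0.0055, 0.118 with pair means).

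A set of genes was on in 1 line and at or near 0 in the other. By a limit chosen after the values were seen, 12 genes stayed under 0.5 TPM in all 6 HM samples and at 3 TPM or more in all 6 HetKO samples, and 13 genes did the reverse. In the first set 8 of 12 were also at 3 TPM or more in every WT sample, and in the other 8 of 13. No gene of either set was under 0.5 TPM in all WT samples. The 12 lay on 9 chromosomes and the 13 on 6.

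Of those at or near 0 in HM, Tsnax encodes translin-associated factor X, a partner of translin in an RNA-binding nuclease complex. It was at 0.11, 0.07, 0.11, 0.13, 0.42 and 0.16 TPM in HM and at 51.3, 53.2, 57.3, 48.8, 52.6 and 53.7 TPM in HetKO (log2 difference -5.53, SE 0.09, limma adjusted p = 1.6e-13). Galnt11, a transferase that starts O-linked glycans, had 0 to 0.04 TPM in HM and 18.1 to 21.1 TPM in HetKO (-4.34, SE 0.09, limma adjusted p = 1.09e-12). WT had 48.3 to 50.7 TPM of Tsnax and 12.1 to 19.2 TPM of Galnt11, close to HetKO in both cases. Pmaip1, which encodes the pro-apoptotic protein NOXA, was at 0 to 0.13 TPM in HM and 3.41 to 12.2 TPM in HetKO (-2.83, SE 0.26, limma adjusted p = 8.14e-06, 0.0123 with pair means). Wdr31 and Lyplal1 had the same pattern at lower levels, with HetKO means of 5.60 and 5.20 TPM.

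The set at or near 0 in HetKO was led by genes of the Y chromosome. Eif2s3y, a subunit of the translation initiation factor eIF2, was at 68.1, 61.2, 62.3, 71.5, 66.2 and 70.8 TPM in HM and 52.3 to 57.9 TPM in WT. Ddx3y, an RNA helicase, was at 41.9 to 57.1 TPM in HM and 20.8 to 29.8 TPM in WT. Uty and Kdm5d, a pair of histone demethylase family genes, were at 14.8 to 19.7 and 10.4 to 12.5 TPM in HM. All 4 genes were listed at 0 in every HetKO sample. They lie on Y between positions 897788 and 1286629, together with Gm29650 and Gm4017, which were also listed at 0 in all HetKO samples. Of the 12 Y genes that reached 1 TPM in any sample of the series, these are the 6 listed at 0 throughout HetKO. The most abundant of the others, Gm47283, was at 94.3 to 185 TPM in HetKO and 79.0 to 176 TPM in HM, a level that is uncertain because its region holds near-identical copies. HM is described as derived from HetKO, yet has RNA of Y genes that are listed at 0 in HetKO, and how this came about was not tested.

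The other genes at or near 0 in HetKO lie on autosomes. Krt19, a keratin of simple epithelia, was at 26.4, 47.9, 45.3, 13.6, 5.69 and 6.06 TPM in HM, and in HetKO it was listed at 0 in 5 samples and at 0.12 TPM in the other. It was also present in WT, at 10.3 to 23.2 TPM. Mgst1, a microsomal glutathione transferase, was at 8.98 to 15.7 TPM in HM, 0 to 0.21 TPM in HetKO and 21.4 to 26.3 TPM in WT. Nptx2, a neuronal pentraxin, was at 5.08 to 17.7 TPM in HM and listed at 0 in all HetKO samples. The log2 differences were 4.20, 3.66 and 3.45 (SE 0.47, 0.15 and 0.25, limma adjusted p = 4.21e-05, 3.09e-09 and 9.64e-07). Passing with pair means was a condition for choosing these 3 genes. Fam217b and C330024D21Rik belong to the same set, at means of 3.77 and 11.8 TPM in HM.

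**Figure D2:**
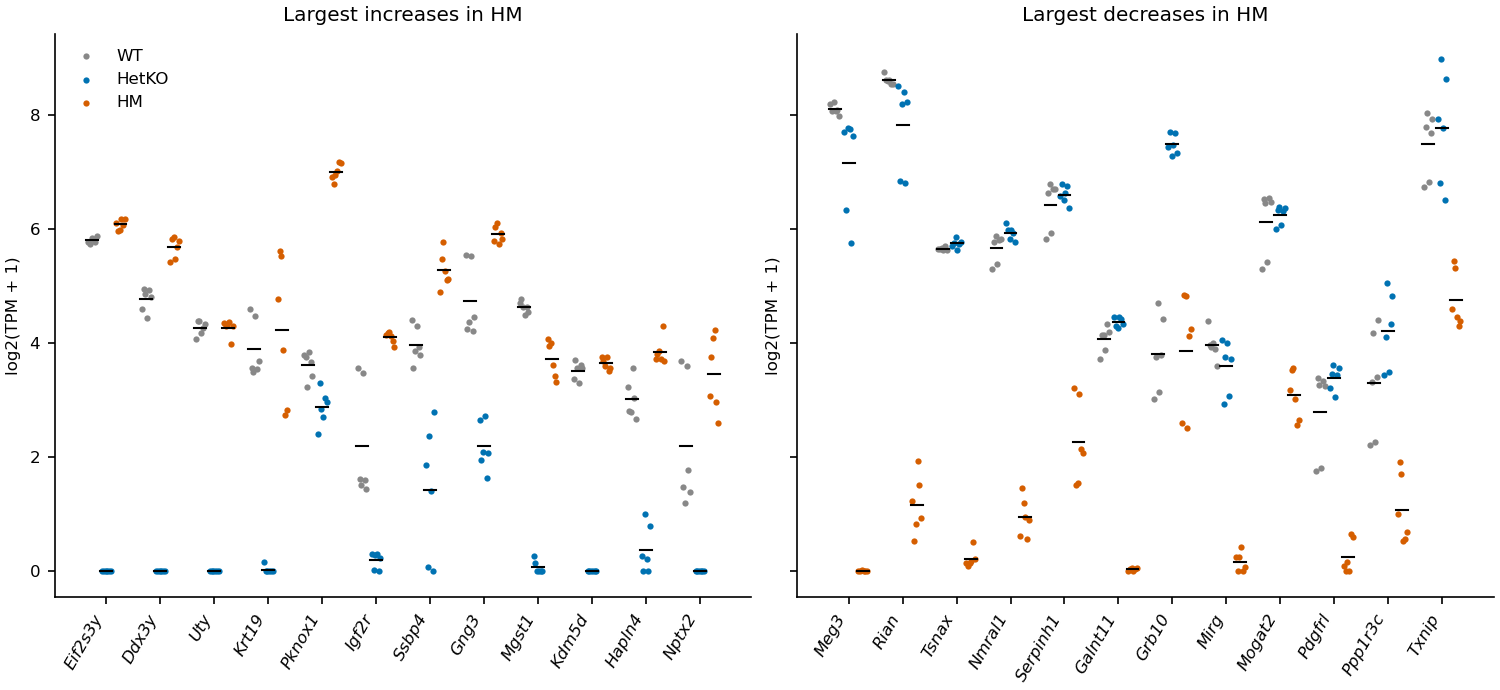
Level of the 12 largest increases (left) and 12 largest decreases (right) in HM that passed with 6 samples and with pair means and did not overlap, leaving out gene models without a name (Gm, Rik and clone names). The y axis is log2(TPM + 1), each point is a sample (6 per line), black bars are means of a line, and most genes have WT close to 1 of the 2 lines, such as Tsnax (HetKO and WT at about 50 TPM) or Grb10 (HM and WT low).

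Among the remaining large increases, Pknox1, a TALE homeobox transcription factor, stood out because only HM was high. It was at 119, 109, 122, 129, 143 and 142 TPM in HM, 4.31 to 8.89 TPM in HetKO and 8.43 to 13.4 TPM in WT, a 19.7-fold ratio of HM to HetKO means (log2 difference 4.12, SE 0.13, limma adjusted p = 1.89e-10). Gng3, a G protein gamma subunit, had 52.5 to 67.5 TPM in HM and 2.10 to 5.63 TPM in HetKO, with WT between at 17.6 to 45.8 TPM. Ssbp4 and Hapln4 had means of 38.5 and 13.6 TPM in HM and 2.41 and 0.35 TPM in HetKO. The log2 differences of Gng3, Ssbp4 and Hapln4 were 3.72, 3.86 and 3.47, and passing with pair means was a condition of their choice.

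Among the remaining large decreases, Serpinh1 encodes HSP47, the collagen chaperone. It was at 8.26, 1.85, 1.91, 7.57, 3.43 and 3.20 TPM in HM against 81.05 to 109 TPM in HetKO and 55.5 to 109 TPM in WT (-4.34, SE 0.28, limma adjusted p = 2.41e-07). Mogat2, an acyltransferase of lipid synthesis, lies near it on chromosome 7 (99219084 to 99238619, with Serpinh1 at 99345376 to 99353239) and was at 4.89 to 10.8 TPM in HM and 63.2 to 82.5 TPM in HetKO. Nmral1, a redox-sensing protein, fell from 53.9 to 68.2 TPM in HetKO to 0.48 to 1.74 TPM in HM. Txnip, an inhibitor of thioredoxin and of glucose uptake, fell from 89.6 to 501 TPM to 18.6 to 42.1 TPM, and Ppp1r3c, which targets a phosphatase to glycogen, from 9.84 to 32.0 TPM to 0.44 to 2.76 TPM. Pdgfrl had 0 to 0.57 TPM in HM and 7.29 to 11.2 TPM in HetKO. The log2 differences of these 5 genes ran from -4.99 (Nmral1) to -3.02 (Txnip). They were chosen for passing with pair means, where Txnip had the highest limma adjusted p (0.0296).

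Genes of glycolysis and the hypoxia response were mostly lower in HM. Glycolysis turns glucose into pyruvate and lactate, and many of its genes are targets of hypoxia-inducible factors (HIF), as are the prolyl hydroxylases Egln1 and Egln3 that restrain HIF. Of 31 listed genes 30 were tested, 24 were lower in HM (20.6% of all tested genes were), 0 were higher and 6 did not pass, with a median of -0.84. At an unadjusted p under 0.05 the numbers were 0 higher and 25 lower by the same limma fit, and with pair means 5 were lower. The count of lower genes stayed between 19 and 26 in every other fit that was run. As the median of its members relative to WT, the list lay between -1.09 and -0.27 in the HM samples and between -0.07 and 0.32 in the HetKO samples. HM replicates 2 and 3 were the 2 nearest to HetKO.

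Enzymes of the pathway showed moderate and regular decreases. Gapdh was at 4751, 5236, 4903, 4866, 4784 and 4552 TPM in HM and 6385 to 7689 TPM in HetKO (log2 difference -0.52, SE 0.05, limma adjusted p = 2.26e-05, 0.0283 with pair means). Gpi1, Pfkl and the glucose transporter Slc2a1 fell by 0.85, 0.73 and 0.79 and also passed with pair means. Eno2, the neuronal enolase and the largest difference of the list, was at 13.2, 66.4, 55.1, 8.59, 2.82 and 4.45 TPM in HM and 57.1 to 236 TPM in HetKO, so HM replicates 2 and 3 reached the range of HetKO (-2.84, SE 0.68, limma adjusted p = 0.0074, 0.125 with pair means). Eno1, the general form of enolase, did not pass, at means of 1690 TPM in HM and 1744 TPM in HetKO, and neither did Ldha, Hk2, Pgam1 or Slc16a3.

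Genes that respond to low oxygen fell with them. Pdk1, which turns pyruvate away from the mitochondria, was at 23.2, 31.7, 29.2, 27.3, 19.5 and 21.6 TPM in HM and 72 to 127 TPM in HetKO (-1.92, SE 0.16, limma adjusted p = 2.86e-06, 0.0066 with pair means). It lies in the lowered stretch of chromosome 2. Ndrg1 and Ddit4, an inhibitor of mTORC1, fell by 2.53 and 2.21, but on values that spread widely within HM (29.9 to 282 TPM for Ddit4) and not with pair means (adjusted p = 0.103 and 0.11). Bnip3, Ankrd37, P4ha1, P4ha2, Egln1 and Vegfa also passed with 6 samples. Epas1, which encodes HIF-2α, was higher in HM, at a mean of 8.75 against 0.545 TPM (2.67, limma adjusted p = 1.29e-08, 0.00132 with pair means), a gene outside the list that was named after its value was seen. With that HetKO mean, Epas1 entered the test only through HM, which fixed its direction.

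The letters ACGTG, the core of sites bound by HIF and by several other factors, were searched on both strands of promoters from RefSeq (GRCm38.p6), windows of 300 bases around the start of each gene. For each gene only the promoter nearest to its annotated start was searched, which need not be the one used in these cells. Of 28 listed genes with a promoter, 16 held a match (57.1%), against 26.3% of 9733 tested genes. They were 11 of the 22 genes lower in HM and 5 of the 6 that did not pass. The overlapping letters CACGTG count as a match on each strand. Promoters of 4 genes that were lower in HM are shown, chosen because they hold a match, with matches in capitals, and 11 of the 22 lower genes held none. A match is not evidence of binding.
Ankrd37, chr8:45999801-46000100, minus strand: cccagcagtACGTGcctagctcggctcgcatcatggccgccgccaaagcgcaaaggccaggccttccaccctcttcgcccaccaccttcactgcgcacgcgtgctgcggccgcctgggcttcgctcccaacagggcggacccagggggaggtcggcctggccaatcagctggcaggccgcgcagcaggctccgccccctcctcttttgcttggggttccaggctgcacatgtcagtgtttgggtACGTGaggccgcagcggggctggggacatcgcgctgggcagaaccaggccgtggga
Bnip3, chr7:138909457-138909756, minus strand: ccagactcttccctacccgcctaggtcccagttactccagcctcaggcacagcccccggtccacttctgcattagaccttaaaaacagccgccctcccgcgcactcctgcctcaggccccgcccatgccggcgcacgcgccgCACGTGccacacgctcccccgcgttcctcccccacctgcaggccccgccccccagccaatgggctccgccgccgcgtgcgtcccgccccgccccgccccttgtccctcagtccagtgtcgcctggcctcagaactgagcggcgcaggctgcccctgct
Ddit4, chr10:59951721-59952020, minus strand: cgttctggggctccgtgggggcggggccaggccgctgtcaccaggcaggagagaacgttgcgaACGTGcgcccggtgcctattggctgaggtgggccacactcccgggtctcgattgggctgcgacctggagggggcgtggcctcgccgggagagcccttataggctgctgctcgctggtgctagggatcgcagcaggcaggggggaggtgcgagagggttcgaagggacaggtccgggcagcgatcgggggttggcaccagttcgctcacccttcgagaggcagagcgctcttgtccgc
P4ha2, chr11:54100674-54100973, plus strand: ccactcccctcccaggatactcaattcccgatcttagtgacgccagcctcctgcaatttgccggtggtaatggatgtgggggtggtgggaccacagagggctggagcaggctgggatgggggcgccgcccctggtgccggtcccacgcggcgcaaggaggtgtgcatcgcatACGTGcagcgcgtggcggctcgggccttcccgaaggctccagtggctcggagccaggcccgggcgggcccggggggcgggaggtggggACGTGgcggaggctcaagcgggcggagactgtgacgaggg

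Genes of the FGF and ERK pathway moved the other way. FGF ligands act through receptor tyrosine kinases and the kinase ERK, which switches on immediate early genes and also its own inhibitors, the Sprouty, Spred and Dusp proteins. Of 32 listed genes 28 were tested, 18 were higher in HM (14.0% of all tested genes were), 3 lower and 7 did not pass, with a median of 0.71. With pair means 5 were higher. In the other fits 13 to 20 were higher and 1 to 4 lower. Relative to WT, the median of the list lay between 0.51 and 0.82 in HM and between -0.35 and 0.27 in HetKO.

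The ligands divided. Fgf5, a marker of the primed epiblast, was at 19.05, 19.3, 21.8, 23.4, 53.7 and 59.6 TPM in HM and 1.00 to 2.63 TPM in HetKO (3.42, SE 0.30, limma adjusted p = 5.81e-06, 0.00867 with pair means). Fgf4, a target of Oct4 and Sox2, was at 17.1 to 38.5 TPM in HM and 1.28 to 5.66 TPM in HetKO (2.54, SE 0.32, limma adjusted p = 0.000118, 0.0284 with pair means). Fgf3, Fgf4, Fgf15 and Ccnd1 all passed as higher, and all lie within chr7:144838083-144939925. Fgf8 went down, at 1.66 to 4.91 TPM in HM and 2.11, 60.4, 20.4, 2.28, 55.3 and 27.3 TPM in HetKO. This rested on 4 HetKO samples, and the difference of -2.05 (SE 0.72, limma adjusted p = 0.0417) did not pass with pair means (adjusted p = 0.23), after centring (0.0556) or without HetKO replicates 2 and 5 (-1.14, adjusted p = 0.156). Leaving out any of 10 single samples also ended it, with values from -2.16 to -1.67.

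Most ERK targets and feedback inhibitors on the list rose. Dusp6, the cytoplasmic ERK phosphatase, was at 57.7, 52.6, 59.5, 64.3, 90.02 and 100.03 TPM in HM and 6.91, 28.9, 11.6, 8.14, 22.3 and 9.09 TPM in HetKO. WT had 13.1 to 30.1 TPM. Its difference of 2.35 (SE 0.31, limma adjusted p = 0.000172) passed with pair means (adjusted p = 0.0317), as did those of Dusp4 (1.95) and Junb (1.14). Egr1 rose by 2.07 and Spry2 by 1.99 (limma adjusted p = 0.00227 and 0.0038), but not with pair means (adjusted p = 0.0853 and 0.102). For both genes HetKO replicates 2 and 5 were the highest HetKO samples, at 11.7 and 10.2 TPM for Egr1 and 22.0 and 19.7 TPM for Spry2, against 1.34 to 4.53 TPM over both genes in the other 4. The other two genes that passed as lower were Fgfbp3, which carries FGF ligands, by -0.98 (limma adjusted p = 0.00318, 0.103 with pair means), and the immediate early gene Ier3. Ier3 ran from 4.71 to 95.7 TPM in HM and from 48.5 to 183 TPM in HetKO, and its difference of -2.04 (SE 0.65, limma adjusted p = 0.0284, 0.2 with pair means) did not pass when any of 5 single samples was left out. The receptor Fgfr1 did not pass, at means of 55.8 and 66.6 TPM.

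**Figure D3:**
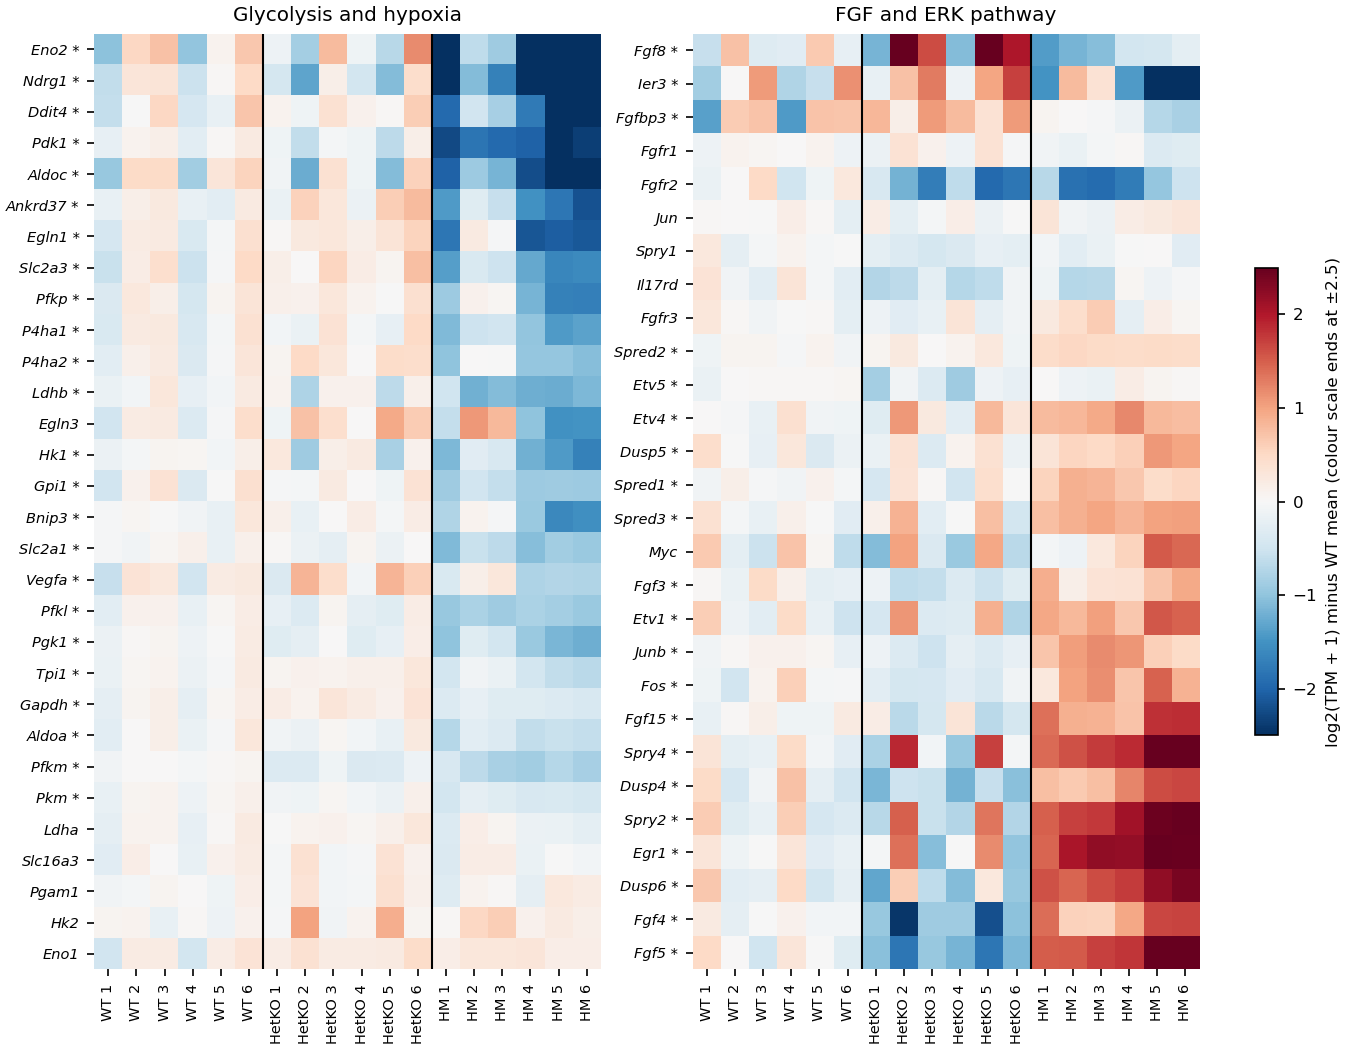
Level of the 30 tested genes of the glycolysis and hypoxia list and the 28 of the FGF and ERK list in all 18 samples. Rows are genes ordered by the difference between HM and HetKO, columns are samples, colour is log2(TPM + 1) minus the WT mean (scale ending at 2.5 in either direction), and asterisks mark the 24 and 21 genes that passed. HM columns are mostly below WT on the left and above it on the right, with HM replicates 2 and 3 paler on the left.

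Pluripotency genes differed in part. Pou5f1 (Oct4) was level, at 1999 to 2145 TPM in HM and 1814 to 2244 TPM in HetKO. Of the naive list, 16 of 23 genes were tested, 6 higher and 2 lower with a median of 0.58. Of the core and primed list, 26 of 27 were tested, 11 higher and 1 lower with a median of 0.27. Nanog, counted here in the naive list, fell from 50.04 to 112 TPM in HetKO to 12.5 to 26.6 TPM in HM (-2.10, SE 0.24, limma adjusted p = 4.9e-05, 0.0134 with pair means), with WT at 26.4 to 62.4 TPM. The other lower member of that list was Socs3 (-1.26, SE 0.18, limma adjusted p = 0.000315, 0.0473 with pair means). The lower member of the core and primed list was Sall4, the zinc finger partner of Nanog and Oct4. It was at 1.24, 12.8, 13.5, 0.63, 11.53 and 13.4 TPM in HM and 34.3 to 69.5 TPM in HetKO (-2.67, SE 0.56, limma adjusted p = 0.0036, 0.101 with pair means). HM replicates 1 and 4 were the low pair.

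Other members of these lists rose. Nr0b1 (Dax1) was at 59.3, 32.0, 35.2, 85.7, 103 and 102 TPM in HM and 6.89 to 11.9 TPM in HetKO (2.62, SE 0.28, limma adjusted p = 3.45e-05). Utf1 rose by 1.35, Zfp42 (Rex1) by 1.62 and Cdh1, E-cadherin, by 1.22. Dnmt3l, a cofactor of de novo DNA methylation, was at 15.8, 5.25, 6.32, 68.4, 19.9 and 18.2 TPM in HM and 0.42 to 1.42 TPM in HetKO (3.15, SE 0.47, limma adjusted p = 0.000402). Its HetKO mean was 0.913 TPM, so it entered the test only through HM, which fixed its direction. Dnmt1, Dnmt3a and Dnmt3b, the enzymes themselves, did not pass. Of 27 listed genes of DNA methylation and Polycomb, 26 were tested, 4 were higher and 3 lower, or 26.9% against 34.6% of all tested genes.

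Epithelial and mesenchymal genes were more often higher than lower, and the members that rose belong to both classes. Of 35 listed, 33 were tested, with 17 higher and 3 lower (14.0% and 20.6% of all tested genes were) and a median of 0.69. With pair means 3 were higher. With genes at a mean of 5 TPM or more the median was 0.38, with 9 higher and 3 lower. The epithelial members that rose include Krt19, Cdh1, the tight junction genes Cldn3, Cldn6, Cldn7 and Ocln, and the epithelial regulators Grhl2 and Ovol2. The contractile or mesenchymal members that rose include Acta2, Tpm1, Twist1 and Ccn2. Krt19 and Acta2 averaged 0.02 and 0.465 TPM in HetKO and entered the test only through HM, which fixed their direction. Among the members that fell, Zeb1 was lower by 0.79 (limma adjusted p = 0.00367, 0.105 with pair means). Cdh2, N-cadherin, was lower by 0.55 (limma adjusted p = 0.0184, 0.18 with pair means). Vim, the intermediate filament of mesenchymal cells, was at 119, 73.7, 62.8, 131, 99.9 and 95.4 TPM in HM and 100.2 to 181 TPM in HetKO and did not pass (-0.43, SE 0.20, limma adjusted p = 0.109).

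Lineage genes were mostly low. Of 35 mesoderm and endoderm genes 11 reached the filter and 4 passed, and of 36 neural and ectoderm genes 14 reached it and 4 passed. These are 36.4% and 28.6% of tested members, near the 34.6% of all tested genes. En1 and En2, homeobox factors of the midbrain and hindbrain, were at 2.89 to 18.1 and 4.93 to 17.0 TPM in HM and 0.22 to 0.84 and 0.34 to 0.77 TPM in HetKO. They rose by 2.68 (SE 0.37) and 2.56 (SE 0.28), with limma adjusted p = 0.000227 and 4.16e-05, and both passed with pair means. Their HetKO means were under 1 TPM (0.48 and 0.585), so both entered the test only through HM, which fixed their direction. Tbx6, a mesoderm factor, fell from 1.92 to 2.73 TPM to 0.56 to 1.30 TPM (-0.81, SE 0.13, limma adjusted p = 0.000914, 0.081 with pair means). Mixl1 was at means of 1.32 and 0.743 TPM and did not pass, and Gata4 was below the filter at 0.263 and 0.15 TPM. Twist1 and Wt1 rose by 1.31 and 1.84 without passing with pair means (adjusted p = 0.103 and 0.0794). Wt1 averaged 0.433 TPM in HetKO and Tbx6 0.86 TPM in HM, so these also entered only through the other line.

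Of all tested genes 14.0% were higher and 20.6% lower, for comparison with the counts of other signalling pathways. Of 30 tested Wnt pathway genes 2 were higher and 5 lower, of 32 TGF-β, Nodal and BMP genes 6 and 2, and of 17 Notch genes 0 and 3 (1 and 4 at an unadjusted p under 0.05 in the same limma fit). Lef1, a transcription factor of Wnt signalling, rose by 1.92 (SE 0.30, limma adjusted p = 0.000569, 0.0506 with pair means), and the Wnt antagonist Sfrp2 fell by 1.15 (SE 0.18, limma adjusted p = 0.000643, 0.047 with pair means). Wnt8a and Sp5 were high in some HetKO samples only, with means of 20.9 and 5.71 TPM against 2.40 and 0.225 TPM in HM, and did not pass. Tgfb1 was at 17.1 to 30.6 TPM in HM and 5.03 to 8.61 TPM in HetKO (1.72, SE 0.16, limma adjusted p = 8.51e-06, 0.00867 with pair means).

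Genes of interferon response and double-stranded RNA sensing were 8 higher and 3 lower of 21 tested, or 52.4% against 34.6% of all tested genes. The median was 0.36, and 0.15 without HetKO replicates 2 and 5. Oas1a, a sensor of double-stranded RNA, and H2-K1, a class I histocompatibility gene, rose by 1.65 and 1.33 (SE 0.24 and 0.20, limma adjusted p = 0.000388 and 0.000426, both 0.0447 with pair means). Oas1a averaged 0.342 TPM in HetKO, so it entered the test only through HM, which fixed its direction. Eif2ak2, which encodes the kinase PKR, fell by 1.16 (SE 0.21, limma adjusted p = 0.00148, 0.0748 with pair means). Of 29 tested p53 targets and apoptosis genes 2 were higher and 7 lower, a share of lower genes near the 20.6% of all genes. Without HetKO replicates 2 and 5 the lower ones were 14 of the 29, a larger share than the 3887 of 13762 among all genes in that fit.

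Of 40 tested cell cycle genes 4 were higher and 6 lower, or 25.0% against 34.6% of all genes. Without HetKO replicates 2 and 5 they were 8 and 13, in a fit where 6447 of all 13762 genes passed, so the share of the list was not below that of all genes there. Cdkn2a rose by 1.36 (SE 0.16, limma adjusted p = 5.36e-05, 0.0235 with pair means), at 4.19 to 7.40 TPM in HM, and WT had a mean of 6.34 TPM. Of 36 extracellular matrix and adhesion genes 3 were higher and 7 lower, with Plod2, a collagen lysyl hydroxylase, lower by 1.46, Loxl2 by 1.39 and Itga6 by 1.25 after Serpinh1. Of 23 cholesterol synthesis genes 3 were higher and 3 lower, and without HetKO replicates 2 and 5 they were 2 and 10. Hmgcs1 was higher by 1.33 (SE 0.19, limma adjusted p = 0.000372, 0.0423 with pair means) and lies in the stretch of chromosome 13 described below. Of 31 genes of amino acid and unfolded protein stress 3 were higher and 5 lower, and of 5 tested germline genes 2 were higher, Tex19.1 by 1.62 and Prdm1 by 1.5. The shares that passed were 27.8% for matrix and adhesion, 26.1% for cholesterol synthesis, 25.8% for stress and 40.0% for germline genes. Gid4, a subunit of the CTLH ubiquitin ligase, was lower by 0.49 (SE 0.10, limma adjusted p = 0.00302, 0.124 with pair means), and Ptpn21 was at means of 5.25 and 5.60 TPM without a difference beyond its spread.

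**Figure D4:**
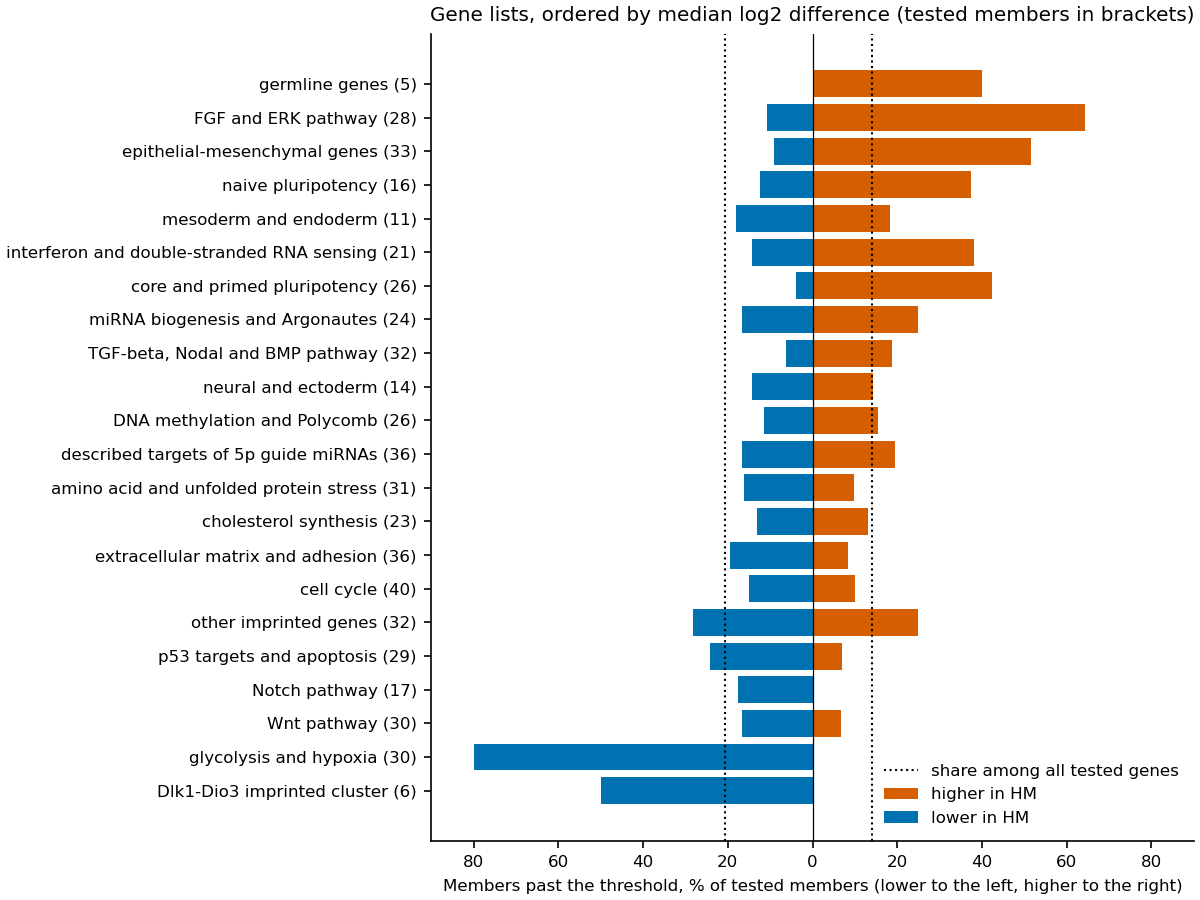
Share of tested members of 22 gene lists that were higher (right) or lower (left) in HM at a limma adjusted p under 0.05. The x axis is the percentage of tested members, dotted lines are the shares among all 13762 tested genes (14.0% higher, 20.6% lower), and the glycolysis and hypoxia list (24 of 30 lower) and the FGF and ERK list (18 of 28 higher) reach furthest among lists with over 10 members.

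Some differences lay together along chromosomes. The genome was divided into windows of 10 Mb, and for each of 226 windows with at least 20 tested genes the median of log2(TPM + 1) relative to the WT mean of each gene was taken in each sample. In 4 windows the medians of the 2 lines differed by at least 0.3 without overlap. These windows were picked for that shift in the same values, so the gene counts given for them describe it and are not added support. Of all tested genes 20.6% were lower and 14.0% higher in HM. On chromosome 2 from 70 to 80 Mb the window medians were -0.48, -0.45, -0.56, -0.60, -0.51 and -0.54 in HM and -0.02 to 0.06 in HetKO, and 28 of 50 genes were lower and 11 higher in HM. The window next to it, from 60 to 70 Mb, was at -0.67 to -0.27 in HM and -0.31 to 0.08 in HetKO, with overlap. On chromosome 12 from 20 to 30 Mb the medians were -0.46 to -0.27 in HM and -0.17 to 0.06 in HetKO, and 14 of 41 genes were lower.

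At the far end of chromosome 13 genes were higher in HM than in HetKO. From 110 to 120 Mb the medians were 0.34, 0.44, 0.42, 0.35, 0.37 and 0.29 in HM and -0.37 to -0.29 in HetKO. WT samples were divided there, with replicates 1 and 4 at 0.34 and 0.29, within the range of HM, and the other 4 at -0.24 to -0.08. Of 32 genes there 24 were higher and 1 lower in HM, and 13 higher and 1 lower with pair means. From 100 to 110 Mb the medians were 0.13 to 0.26 in HM and -0.14 to -0.01 in HetKO, and 20 of 44 genes were higher and 3 lower.

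On chromosome 3 the HM samples were not alike. From 100 to 110 Mb all HetKO samples were raised, at 0.47 to 0.55, and so were HM replicates 2 and 3, at 0.61 and 0.53. HM replicates 1, 4, 5 and 6 were at -0.13, -0.13, -0.11 and -0.12. The windows from 90 to 100 and from 110 to 120 Mb had the same order, with HetKO at 0.27 to 0.45 and 0.32 to 0.85. From 80 to 90 Mb only HM replicates 2 and 3 were raised, at 0.49 and 0.44, with HetKO at -0.22 to 0.04. The first 10 Mb of the X chromosome had HetKO at 0.18 to 0.28, HM replicates 2 and 3 at 0.23 and 0.19, and the other HM samples at -0.25 to -0.11. HM replicates 2 and 3 lay near HetKO, and apart from the other HM samples, from 100 to 110 Mb of chromosome 3 and in the first 10 Mb of X, but not from 80 to 90 Mb of chromosome 3, where the other HM samples were nearer to HetKO.

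Other windows divided the samples of a line. The first 10 Mb of chromosome 11 was at -0.46, -0.44 and -0.46 in HM replicates 2, 3 and 4, at -0.11 in replicate 1 and at 0.05 and 0.02 in replicates 5 and 6. HetKO replicates 2 and 5 were at -0.59 and -0.53 from 110 to 120 Mb of chromosome 8 and at -0.47 and -0.53 from 100 to 110 Mb of chromosome 15, with the other HetKO samples no lower than -0.10. The first 10 Mb of chromosome 8 had the same 2 HetKO samples at -0.48 and -0.42 and HM at -0.41 to -0.21. From 120 to 130 Mb of chromosome 8 HM replicates 2 and 3 were at 0.23 and 0.25 with the other HM samples at -0.27 to -0.15, and from 160 to 170 Mb of X the HM samples ran from -0.39 to 0.20. With the 167 genes of the 4 shifted windows removed, 1863 genes were higher and 2768 lower in HM, so these windows held few of the calls. DNA copy number was not measured and its part in these shifts was not tested.

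**Figure D5:**
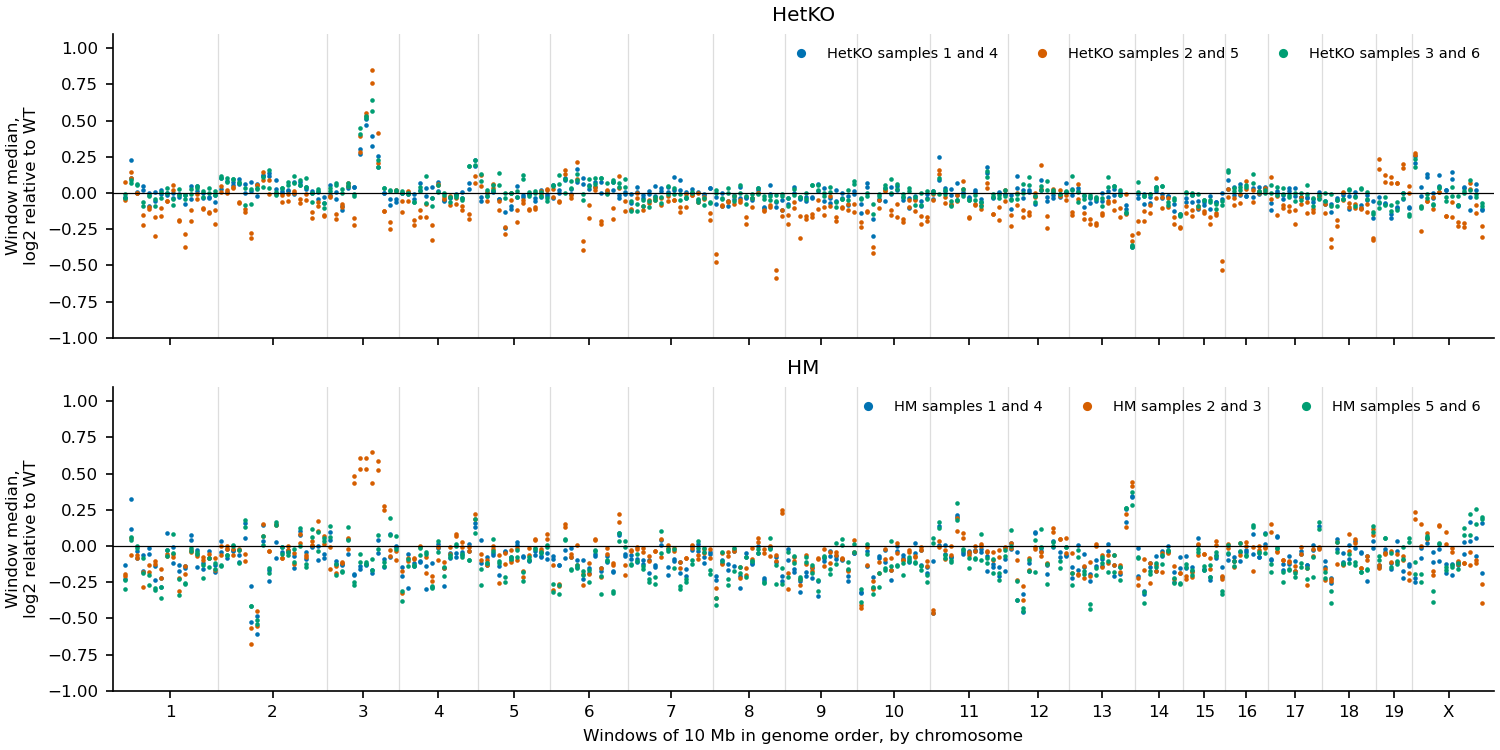
Median shift of 226 windows of 10 Mb in each HetKO sample (top) and each HM sample (bottom). The x axis is windows in genome order by chromosome, the y axis is the median log2(TPM + 1) relative to the WT mean of each gene, each point is a sample and colours mark alike pairs. The lowered stretch of chromosome 2 is in all HM samples, the end of chromosome 13 is above 0 in all HM and below 0 in all HetKO samples, and the raised stretch of chromosome 3 is in all HetKO samples and in HM replicates 2 and 3.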

How the data were processed

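Poly(A) RNA libraries of 6 WT, 6 HetKO and 6 HM samples of P19 cells were made with a stranded mRNA kit and sequenced on an Illumina NovaSeq. According to the methods and the labels, read pairs were merged with BBMerge and quantified with RSEM, and the processing notes also name cutadapt and STAR without versions and the mm10 build. The deposited table holds TPM values computed by the authors, scaled to transcript length and a fixed total, so read depth is unknown and no counting interval is given.

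Values were analysed as log2(TPM + 1) with limma 3.58.1 (trended variance, R 4.3.3) on the 6 HM and 6 HetKO samples, keeping genes that averaged 1 TPM or more in these 12, with Benjamini-Hochberg adjustment over all 13762 genes and a threshold of 0.05. Differences are on this scale, which understates changes of low genes. Gene positions came from GENCODE M21 (GRCm38), in which all 55450 identifiers matched. The text names Dicer1, the 12 largest changes in each direction that passed with 6 samples and with means of alike pairs without overlap, leaving out gene models named Gm, Rik or by clone, members of the gene lists, and a few genes that are said to be chosen after their values were seen. The genes, the lists and the alike pairs were chosen with earlier results of these data known, and lists are described by counts and medians. The labels number the samples but do not say whether they are separate cultures, so p-values measure only the spread between these samples. Alternatives were another pseudocount and filter, centring, quantile normalization, pair means, a replicate block, 1 fit to the 3 lines together, a test with unequal variances, a 1.5-fold limit, and fits without single samples, alike samples or shifted windows.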

Additional observations from a re-analysis of the deposited data

Results flagged for a closer look

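In groups of 6 samples, the highest or lowest value was called far from the others where its gap exceeded Dixon's critical value as a share of the range. This was met by 10 of 187 groups, and chance would give about 9.3 if the 6 values were independent and normal. The samples come in alike pairs and some values lie at the floor, so the 2 numbers cannot be compared closely. In HM, replicate 5 was lowest for Uty at 14.76 TPM (others 18.67 to 19.72), and highest for Hapln4 at 18.59 TPM (others 11.86 to 13.60) and Tsnax at 0.42 TPM (others 0.07 to 0.16). HM replicate 4 was highest for Dnmt3l at 68.43 TPM (others 5.25 to 19.86) and for Cdkn2a at 7.40 TPM (others 4.19 to 4.90), and HM replicate 3 was the only HM sample above 0 for Meg3, at 0.01 TPM. In HetKO, replicate 1 was the only sample above 0 for Krt19, at 0.12 TPM. HetKO replicate 3 was highest for Wt1 at 0.81 TPM (others 0.28 to 0.47) and Begain at 5.68 TPM (others 2.44 to 3.49), and HetKO replicate 2 for Plk2 at 1.04 TPM (others 0.47 to 0.66). The difference between HM and HetKO of each of these 10 genes kept its direction when any 1 sample was left out.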

How the results depend on the processing

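The number of genes that passed was 4765 with the settings of the report, 454 with pair means and 2099 when a difference of at least 1.5-fold was also required, and it ran from 3669 to 5203 when each sample was left out in turn. The other settings gave 3849 to 6447. Dicer1 no longer passed after centring (-0.13), with pair means (-0.25), without HM replicates 2 and 3 (-0.23) or with the 1.5-fold limit (-0.25). Ptpn21, which did not pass, changed sign after centring (0.08), after quantile normalization (0.04) and without 1 of 5 single samples, with a range from -0.16 to 0.04 when each sample was left out in turn. Of 92 named genes that passed, 81 did so whichever sample was left out, and 11 did not. Pair means ended the call of 48 named genes. The 24 largest changes had been chosen for passing with pair means, so they could not be among those lost. Over all tested genes, 451 of the 4765 kept their call with pair means. Leaving out a sample of a pair leaves its near copy in the fit. The cause of these changes was not tested. TPM values keep no depth, so the precision of low values is unknown.

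Averaged over the tested genes, samples of HM and HetKO with the same replicate number did not deviate together. The mean correlation was 0.021, and 1 of 6 HM samples was closest to its own number. Such an average does not show whether single genes are paired. Vim was highest in replicates 1 and 4 of both lines, at 119 and 131 TPM in HM and 181 and 169 TPM in HetKO. A fit with a replicate block gave 4200 genes that passed, 1725 higher and 2475 lower, Dicer1 stayed at -0.25 (limma adjusted p = 0.0418), and Gata6 and Smad1 no longer passed (limma adjusted p = 0.0517 and 0.0532), while Vim passed (limma adjusted p = 0.014).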
